A study of Mus musculus with 8 samples.

Results

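The data described here cover 8 neurogenic progenitor factors in the mouse retina: Atoh7, Neurog2, Neurod4, Olig2, Hes6, Insm1, Gadd45a and Btg2. They were taken by name as a gene set, and all 8 were found among the 54532 deposited genes and were among the 17998 genes with enough reads to be tested. The set carries the label of proneural bHLH factors, but the transcription factor families in the deposited annotation put only 5 of the 8 in the bHLH family. Insm1 is listed there as a zinc finger protein of the zf-C2H2 family, and Gadd45a and Btg2 are given no transcription factor family.

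Whole retinas were profiled by bulk RNA-seq at postnatal day 7 by the labels, or a day earlier by the study's methods, in 4 Mettl3-CKO and 4 control samples. METTL3 is the catalytic subunit of the enzyme complex that places N6-methyladenosine (m6A) on RNA. In the Mettl3-CKO mice (Six3-Cre+; Mettl3 floxed/floxed) both alleles were deleted by a Cre expressed from the Six3 promoter in retinal progenitor cells, with efficient loss in the central retina, so each library also holds peripheral retina. The labels call the other samples control and give no further genotype, and nothing in them says that the 4 samples of a group were separate animals, so the p-values measure the spread between these samples. Total counts ranged from 16227095 to 20281517 per library, and 3 counts corresponded to 0.148 to 0.185 CPM (counts scaled to a common library total). The level of Mettl3 itself, counted over the whole gene and not only over the deleted exons, ranged from 21.1 to 29.6 CPM in the Mettl3-CKO libraries and from 29.3 to 33.8 CPM in the controls. Control replicate 4 carried lens RNA, with a summed level of 3878 CPM over 12 lens genes against 6.92 to 78.1 CPM in the other 7 libraries. Control replicate 1 stood apart from the other controls. A chi-square between the counts of 2 libraries, averaged over genes, was 26.3 to 46.0 for its pairs with them. Among control replicates 2, 3 and 4 it was 5.47 to 16.5.

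Proneural bHLH proteins bind DNA at E-boxes (CANNTG) together with ubiquitous E proteins and push dividing progenitors out of the cell cycle and into neuronal differentiation. Notch signalling holds them back through Hes and Hey repressors, and Id proteins hold them back by taking up the E proteins. In the mouse retina ganglion cells are made before birth and rods, bipolar cells and Müller glia mostly after it, so that by the first postnatal week production of new neurons is coming to its end.

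The 8 genes did not move together. Atoh7 was 2.98-fold higher in Mettl3-CKO retinas, Neurod4 was 1.33-fold higher and Insm1 was lower at 0.779 of the control level, while Neurog2, Olig2, Hes6, Gadd45a and Btg2 did not pass the test. By edgeR's quasi-likelihood test with a Benjamini-Hochberg adjusted p under 0.05, 2 of 8 genes were called higher, where 6.49% of all tested genes were, and 1 of 8 was called lower, where 4.05% were. In 2 of the 8, Atoh7 and Insm1, no Mettl3-CKO value fell among the control values, and this held for 17.4% of all tested genes. The median log2 fold change was 0.12 over the 8 genes and -0.01 over all tested genes, and 6 of the 8 had a positive sign. In bulk tissue a smaller number of expressing cells and a lower RNA level per cell cannot be told apart.

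**Figure D1:**
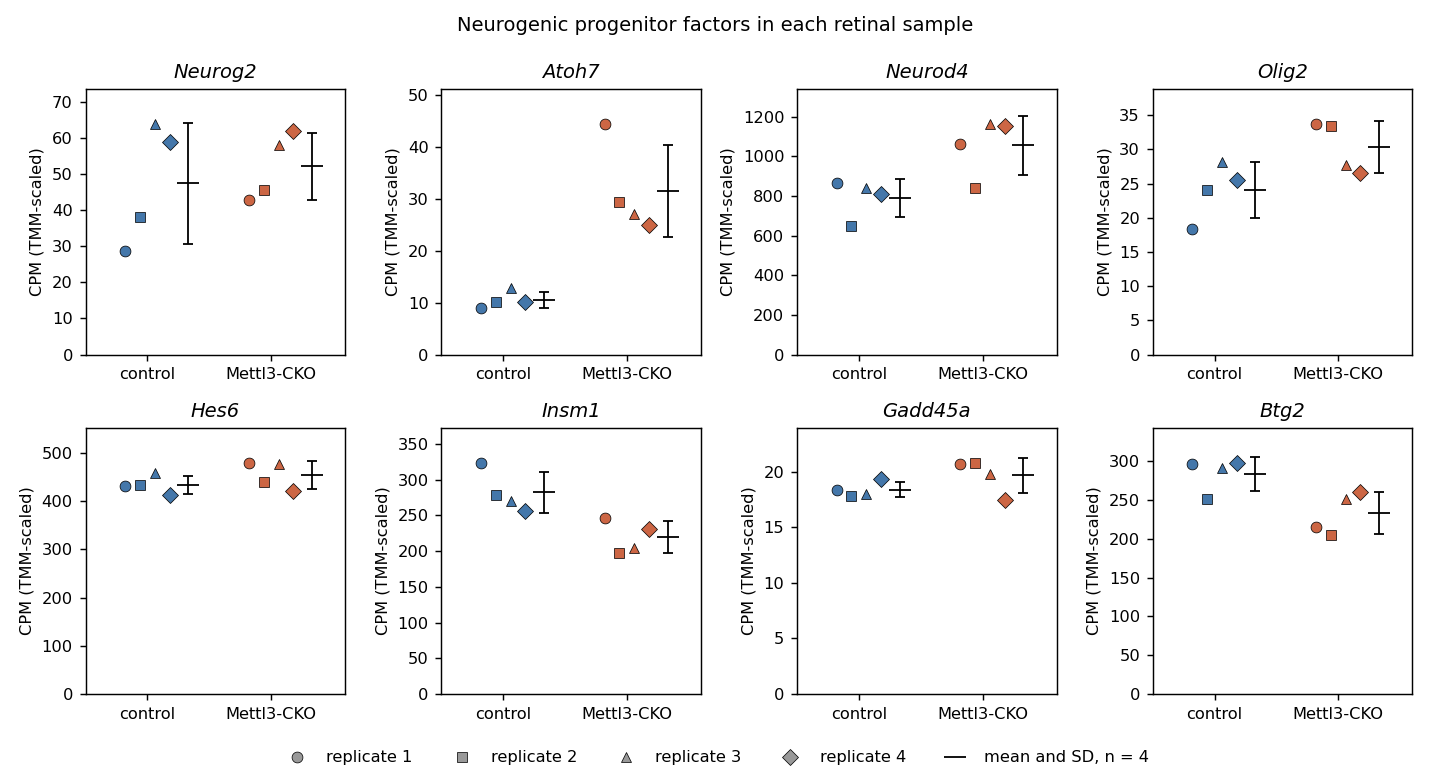
TMM-scaled CPM of each gene (vertical axis, starting at 0) in the 4 control and 4 Mettl3-CKO retinal samples, with the replicate given by the point shape and the mean and SD (n = 4) by the bars. Atoh7 lies between 24.9 and 44.5 CPM in Mettl3-CKO and between 9.04 and 12.7 CPM in control samples, Insm1 is the other gene whose groups do not overlap, and control Neurog2 spreads from 28.7 to 64.0 CPM.

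Atoh7 is the bHLH factor that makes progenitors competent to form retinal ganglion cells, and it is normally expressed before birth. Its gene lies on chr10:63099651-63101279 of GRCm38 on the + strand and has 1 exon. Taken in replicate order, the Mettl3-CKO samples read 44.5, 29.3, 27 and 24.9 CPM and the control samples 9.04, 10.2, 12.7 and 10.2 CPM. Every Mettl3-CKO sample was above every control sample, and Mettl3-CKO replicate 1 was the highest. The means were 31.4 ± 8.88 and 10.5 ± 1.57 CPM (SD, n = 4 each), from 505 to 804 and 166 to 243 counts. The log2 fold change was 1.57 (SE 0.18, edgeR adjusted p = 0.000434), higher than that of 99.5% of the tested genes. Without Mettl3-CKO replicate 1 it was 1.36 (edgeR adjusted p = 0.000861), and in the 16 alternative fits it lay between 1.36 and 1.69 and stayed past the threshold.

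The stretch around the Atoh7 start site is shown because Atoh7 moved most and because it carries E-boxes, the sites that proteins of its own family bind. The sequences are from RefSeq on GRCm38.p6, written 5′ to 3′ on the gene's strand, with E-boxes in capitals. The first lies at chr10:63099711-63099740 (+), upstream of the RefSeq start and inside the gene span used for counting, and the second at chr10:63099535-63099650 (+), just before that span.
Atoh7 E-box pair: gcccgccCACCTGccacCACCTGttccctc
Atoh7 upstream: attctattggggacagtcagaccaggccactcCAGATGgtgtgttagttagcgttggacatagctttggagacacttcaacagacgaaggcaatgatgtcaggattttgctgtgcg
The first holds 2 copies of CACCTG, at 63099718-63099723 and 63099728-63099733, and the second holds 1 CAGATG. RefSeq windows of 300 bases (250 before and 50 after a start) were available for 7 of the 8 genes. On both strands, CACCTG was present in 20.2% of 32851 such windows and at least 2 copies in 2.88%. In the 15327 windows of tested genes CACCTG was present in 18.6%. A match of letters was not tested as a binding site.

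Neurog2, a bHLH factor of progenitors that are about to divide for the last time, did not pass the test and was the most variable of the 8 genes in the controls. It lies on chr3:127633135-127635631 (+). It read 42.9, 45.7, 58.1 and 62.0 CPM in Mettl3-CKO and 28.7, 38.1, 64.0 and 59.0 CPM in control samples. The groups overlapped over most of their range, and control replicate 1 was the lowest. The means were 52.2 ± 9.32 and 47.4 ± 16.8 CPM (SD, n = 4 each), with a log2 fold change of 0.14 (SE 0.22, edgeR adjusted p = 0.753). Without control replicate 1 the sign turned, to -0.04. The control coefficient of variation was 35.4% for Neurog2, against 3.79% for Gadd45a, the steadiest of the 8.

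Neurod4 (Math3), a bHLH factor of newly formed neurons that works with others in making bipolar and amacrine cells, was higher in Mettl3-CKO retinas. It lies on chr10:130268152-130280240 (-). The Mettl3-CKO samples read 1063, 841, 1165 and 1150 CPM and the control samples 865, 649, 840 and 808 CPM. The groups touched at 1 point, with Mettl3-CKO replicate 2 below control replicate 1, and the second replicate was the lowest of both groups. The means were 1055 ± 150 and 790 ± 97.0 CPM (SD, n = 4 each), and the log2 fold change was 0.42 (SE 0.12, edgeR adjusted p = 0.0467). This call sat near the threshold. It was lost without any 1 of Mettl3-CKO replicates 1, 3 or 4 or control replicates 2, 3 or 4, where the log2 fold change was 0.34 to 0.45 and the edgeR adjusted p 0.0705 to 0.138. It was kept without Mettl3-CKO replicate 2 (0.51) and without control replicate 1 (0.46).

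Olig2, a bHLH factor of a subset of dividing progenitors in the retina and of the oligodendrocyte lineage elsewhere, did not pass the test. It lies on chr16:91225457-91228677 (+). It read 33.8, 33.5, 27.7 and 26.5 CPM in Mettl3-CKO and 18.4, 24.1, 28.1 and 25.6 CPM in control samples. Mettl3-CKO replicates 1 and 2 were above all controls and replicates 3 and 4 lay within the control range. The means were 30.4 ± 3.80 and 24.0 ± 4.14 CPM (SD, n = 4 each), with a log2 fold change of 0.34 (SE 0.13, edgeR adjusted p = 0.14). Olig1, its neighbour in the oligodendrocyte lineage, had under 1 CPM in every library.

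Hes6, a bHLH protein that opposes Hes1 and promotes neuronal differentiation, had nearly the same level in both groups. It lies on chr1:91411483-91414038 (-). It read 480, 440, 478 and 422 CPM in Mettl3-CKO and 431, 433, 459 and 413 CPM in control samples, and the ranges overlapped. The means were 455 ± 28.5 and 434 ± 18.7 CPM (SD, n = 4 each), with a log2 fold change of 0.07 (SE 0.08, edgeR adjusted p = 0.663).

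The stretches before Hes6 and Neurod4, the genes with the highest levels of the 8, are shown to set beside that of Atoh7, again from RefSeq on GRCm38.p6, 5′ to 3′ on the gene's strand with E-boxes in capitals. They span chr1:91414039-91414288 (-) and chr10:130280255-130280504 (-).
Hes6 upstream: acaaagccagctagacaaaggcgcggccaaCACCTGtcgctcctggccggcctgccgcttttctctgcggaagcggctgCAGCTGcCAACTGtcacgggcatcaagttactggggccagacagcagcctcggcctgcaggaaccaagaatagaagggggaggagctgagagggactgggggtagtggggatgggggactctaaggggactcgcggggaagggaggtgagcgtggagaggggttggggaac
Neurod4 upstream: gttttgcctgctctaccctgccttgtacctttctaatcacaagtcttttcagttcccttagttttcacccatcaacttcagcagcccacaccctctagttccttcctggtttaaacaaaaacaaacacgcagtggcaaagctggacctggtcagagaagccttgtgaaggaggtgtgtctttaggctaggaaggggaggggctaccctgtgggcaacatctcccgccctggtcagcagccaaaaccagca
The Hes6 stretch holds 3 E-boxes with different inner letters, and the Neurod4 stretch holds 0. Hes6 and Neurod4 have 2 RefSeq windows each, which makes 9 windows for the 7 genes, and the other Neurod4 window holds 1 CAGCTG. An E-box of any kind (CANNTG) was present in 5 of the 9 windows, from 4 genes. It was present in 72.3% of all windows and in 64.8% of the 15327 windows of tested genes. CACCTG was present in 2 of the 9, CAGCTG in 3 (16.3% of all windows) and CAGATG in 1 (17.2%). CACGTG, the letters bound by many Hes and Myc family proteins, was present in 0 of the 9 (7.15% of all windows and 9.30% of those of tested genes). The N-box CACNAG, bound by Hes proteins, was present in 4 (42.5% and 40.6%).

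Insm1, a zinc finger factor that represses progenitor genes as neurons form, was lower in Mettl3-CKO retinas. It lies on chr2:146221921-146225020 (+) and has 1 exon. It read 247, 197, 205 and 230 CPM in Mettl3-CKO and 324, 278, 271 and 257 CPM in control samples. All Mettl3-CKO samples were below all control samples, with Mettl3-CKO replicate 1 and control replicate 4 closest to each other. The means were 220 ± 22.9 and 282 ± 29.0 CPM (SD, n = 4 each), and the log2 fold change was -0.36 (SE 0.10, edgeR adjusted p = 0.0356). The call was lost without any 1 of Mettl3-CKO replicates 2, 3 or 4 or control replicates 2 or 3, where the log2 fold change was -0.38 to -0.31 and the edgeR adjusted p 0.0585 to 0.107. Without control replicates 1 and 4 together the log2 fold change was -0.32 (edgeR adjusted p = 0.0519).

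Btg2 (Tis21), an antiproliferative protein that marks progenitors in their last, neuron-producing division, did not pass the test. It lies on chr1:134075170-134079120 (-). It read 216, 205, 252 and 260 CPM in Mettl3-CKO and 296, 252, 291 and 298 CPM in control samples. The ranges overlapped, since control replicate 2, the lowest of the controls, was level with Mettl3-CKO replicate 3 and below Mettl3-CKO replicate 4. The means were 233 ± 26.8 and 284 ± 21.9 CPM (SD, n = 4 each), with a log2 fold change of -0.29 (SE 0.10, edgeR adjusted p = 0.0805). DESeq2 put the same gene past the threshold, with a log2 fold change of -0.29 (DESeq2 adjusted p = 0.0491).

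Gadd45a, a stress-inducible protein with roles in growth arrest and DNA repair, did not pass the test. It lies on chr6:67035096-67037457 (-). It read 20.7, 20.8, 19.8 and 17.4 CPM in Mettl3-CKO and 18.4, 17.8, 18 and 19.4 CPM in control samples. The ranges overlapped, and Mettl3-CKO replicate 4 was the lowest of all 8. The means were 19.7 ± 1.56 and 18.4 ± 0.698 CPM (SD, n = 4 each), with a log2 fold change of 0.10 (SE 0.10, edgeR adjusted p = 0.611). The value is uncertain because E230016M11Rik overlaps it on the other strand with 269 to 376 counts against 291 to 374 for Gadd45a, and whether strand was used in counting is not given in the sources used here. None of the other 7 genes overlaps another gene of the annotation.

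**Figure D2:**
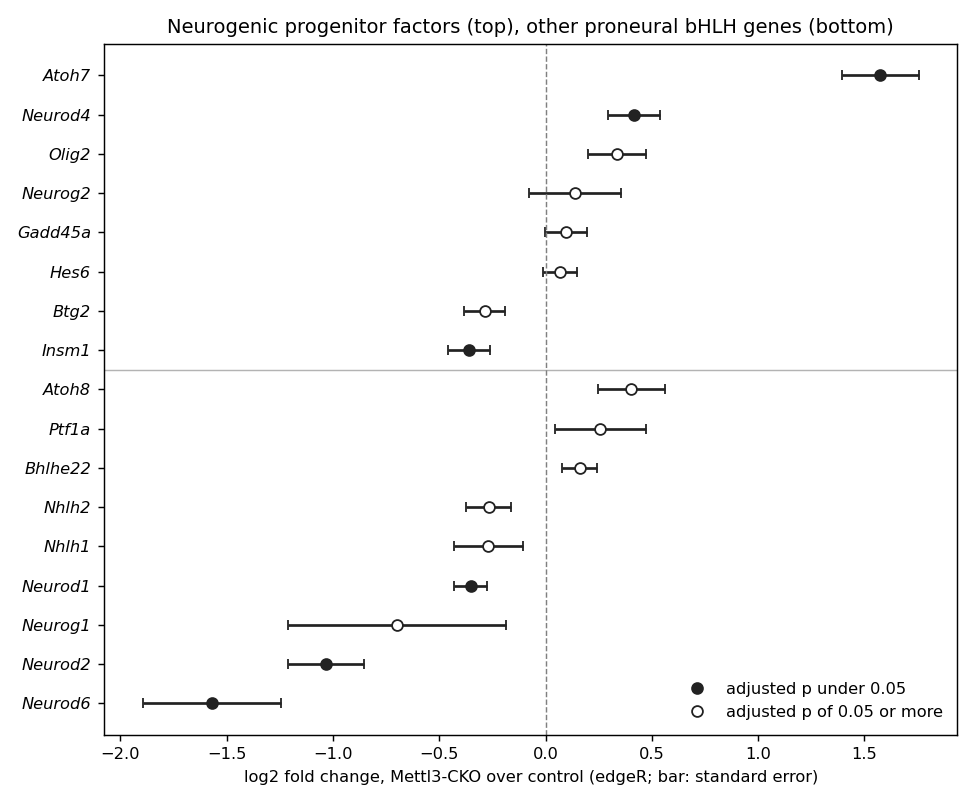
Log2 fold change of Mettl3-CKO over control from edgeR (horizontal axis), with bars for the standard error, for the 8 neurogenic progenitor factors (top) and tested genes of a list of other proneural bHLH genes (bottom). Filled points passed an adjusted p of 0.05, and they are Atoh7 and Neurod4 on the higher side and Insm1, Neurod1, Neurod2 and Neurod6 on the lower side.

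Levels can be set side by side between genes only per length, and FPKM, which is CPM divided by the deposited gene length in kilobases, was used for that. In the controls the FPKM order was Hes6 240 ± 10.4, Neurod4 236 ± 29.0, Btg2 104 ± 8.0, Insm1 91.0 ± 9.36, Neurog2 21.3 ± 7.54, Gadd45a 10.4 ± 0.396, Olig2 9.50 ± 1.63 and Atoh7 6.46 ± 0.964 (SD, n = 4). The sample ranges of Hes6 and Neurod4, of Btg2 and Insm1, of Gadd45a and Olig2, and of Olig2 and Atoh7 overlapped, so these neighbours were not separated. In Mettl3-CKO the FPKM order was Neurod4 315 ± 44.7, Hes6 252 ± 15.8, Btg2 85.0 ± 9.78, Insm1 70.9 ± 7.40, Neurog2 23.4 ± 4.19, Atoh7 19.3 ± 5.45, Olig2 12 ± 1.5 and Gadd45a 11.2 ± 0.884 (SD, n = 4). Here Neurod4 and Hes6, Btg2 and Insm1, Neurog2 and Atoh7, and Olig2 and Gadd45a overlapped. Atoh7 went from the lowest of the 8, 37.1-fold under the highest gene by FPKM, to the sixth place, 16.4-fold under the highest, where its range overlapped that of Neurog2.

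**Figure D3:**
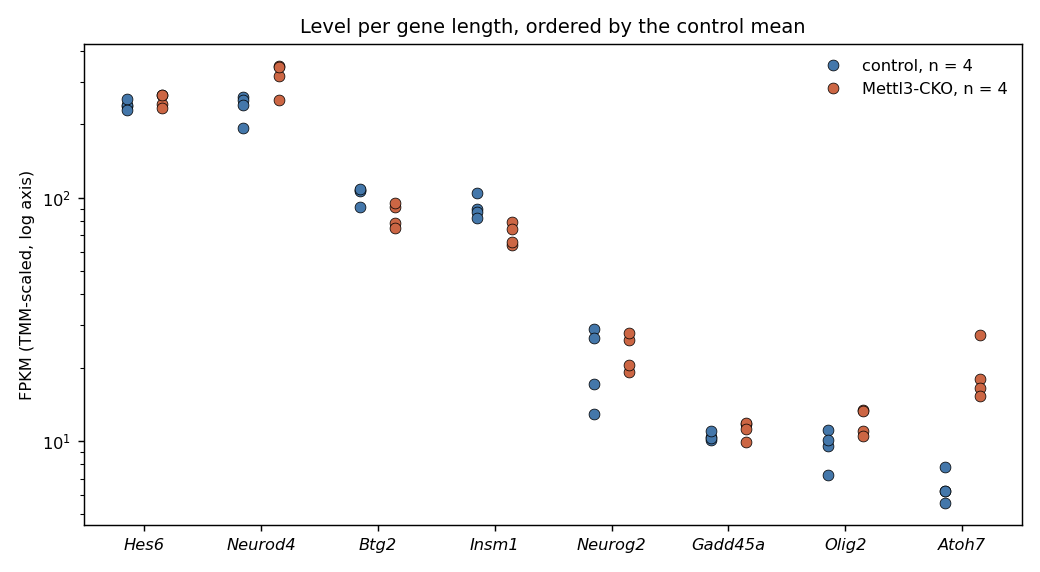
FPKM of each gene on a log axis in every control and Mettl3-CKO sample (1 point per sample, n = 4 per group), ordered by the control mean. Hes6 and Neurod4 are the highest pair, and Atoh7 is the lowest in control samples (6.46 FPKM on average) but lies beside Neurog2 in Mettl3-CKO samples (19.3 FPKM).

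The summed level of the 8 genes was 1812 to 2232 CPM in Mettl3-CKO and 1703 to 1991 CPM in control samples, and these ranges overlapped. Neurod4 alone made up 46.4% to 52.4% of the sum in Mettl3-CKO and 38.1% to 43.5% in control samples, so the sum mainly followed that gene. Atoh7 made up 1.14% to 2.07% and 0.454% to 0.643%.

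Among 16 other proneural bHLH genes, 10 had enough reads to be tested, and 0 were called higher and 3 lower by edgeR's quasi-likelihood test, with a median log2 fold change of -0.27. The 3 were Neurod genes, which act after the last division: Neurod1, which sustains photoreceptors and amacrine cells (-0.35, SE 0.08, adjusted p = 0.0148), Neurod2 (-1.03, SE 0.18, adjusted p = 0.00434) and Neurod6 (-1.57, SE 0.32, adjusted p = 0.0102), both factors of amacrine cells. Neurod1 averaged 498 CPM in Mettl3-CKO and 635 CPM in control samples, Neurod2 12 and 24.7 CPM, and Neurod6 0.541 and 1.64 CPM. Their signs were opposite to that of Neurod4. Of the 6 genes of the list that were not tested, all had under 1 CPM in every library, namely Ascl2, Neurog3, Atoh1, Olig1, Olig3 and Bhlhe23, and Atoh1 had 0 counts in each.

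The partners and inhibitors of the bHLH factors gave no calls in this fit, with 0 of 3 E protein genes (median log2 fold change -0.03), 0 of 4 Id genes (-0.13) and 0 of 6 Hes and Hey genes (-0.01). Hes1, the main Notch effector in progenitors, averaged 53.9 CPM in Mettl3-CKO and 38.0 CPM in control samples with a log2 fold change of 0.50 (SE 0.16, edgeR adjusted p = 0.0573). It lay close to the threshold, and 1 Hes or Hey gene was called higher with all 8 samples by DESeq2, by voom and without the count filter, as it was in the edgeR fits without Mettl3-CKO replicate 4, control replicate 1 or control replicate 2. Voom also called 1 Hes or Hey gene lower. Hes5 averaged 51.1 and 55.6 CPM with a log2 fold change of -0.12 (SE 0.14, edgeR adjusted p = 0.658). Of the 4 Id genes, 1 was called higher without control replicate 1, and voom called 1 higher and 1 lower.

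Of 16 further genes of neurogenic progenitors, all tested, 2 were called higher and 2 lower, with a median log2 fold change of 0.00. Sox11, a factor of young neurons, rose by 0.88 on the log2 scale (edgeR adjusted p = 0.00269), from 123 CPM in control to 226 CPM in Mettl3-CKO samples. Sstr2, a somatostatin receptor, rose by 0.79 (edgeR adjusted p = 0.0274). Cdkn1c, a cyclin-dependent kinase inhibitor (-0.39, edgeR adjusted p = 0.0197), and Gadd45g, a relative of Gadd45a (-0.38, edgeR adjusted p = 0.0329), were lower. The lower count was 0 without Mettl3-CKO replicate 1, Mettl3-CKO replicate 3 or control replicate 3, 1 without Mettl3-CKO replicate 2 or 4 or control replicate 2 or 4, and 4 without control replicate 1, and the higher count was 1 without Mettl3-CKO replicate 1 or 3 or control replicate 4.

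Gadd45a and Btg2 belong to families and to stress responses that were read as separate lists. Of the 2 relatives of Gadd45a, Gadd45g alone was called, and this call was lost without any 1 of the Mettl3-CKO replicates and without control replicate 2 or 3 (0 of 2). Of the relatives of Btg2, 0 of 4 tested genes were called (median 0.01), with 1 called lower without Mettl3-CKO replicate 4 and 1 without control replicate 1. Both genes are known to respond to p53, and of 15 other p53 targets 8 were called higher and 0 lower, with a median log2 fold change of 0.50, a rise that was already known for these libraries when the list was chosen. Cdkn1a, the p53-inducible cell cycle inhibitor, rose by 1.33 on the log2 scale (edgeR adjusted p = 0.000227), from 30.9 to 77.8 CPM. Eda2r (2.06, edgeR adjusted p = 0.000983), Phlda3 (1.36, edgeR adjusted p = 0.00103) and Aen (0.87, edgeR adjusted p = 0.00174) also rose. Gadd45a and Btg2, with log2 fold changes of 0.10 and -0.29, were not among the p53-responsive genes that rose. The p53 higher count was 5 without Mettl3-CKO replicate 1, and 1 p53 target was called lower without control replicate 1 and without control replicate 3. With all 8 samples, DESeq2 called 2 p53 targets lower, and voom and the fit without the count filter called 1 each.

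Btg2 is also an immediate early gene, and of 14 genes of that kind 13 were tested, 0 were called higher and 2 lower, with a median log2 fold change of -0.32. The 2 were Nr4a1 (-0.55, edgeR adjusted p = 0.0116) and Junb (-0.60, edgeR adjusted p = 0.0272). The lower count was 0 without Mettl3-CKO replicate 1 and 1 without Mettl3-CKO replicate 2, 3 or 4 or control replicate 2.

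Markers of cycling progenitors differed between the groups in the same direction as Atoh7 and Neurod4. Of 12 such genes 5 were called higher and 0 lower (median log2 fold change 0.35), led by Mki67 (0.98, edgeR adjusted p = 0.000701) and Birc5 (0.62, edgeR adjusted p = 0.00559). Their summed level was 2123 to 2852 CPM in Mettl3-CKO and 1605 to 2025 CPM in control samples, with no overlap and with none of the 12 at 0. Among the controls, Neurod4 was highest in replicate 1 (865 CPM), the library that stood apart from the others, where the sum was lowest. Neurod4 was lowest in replicate 2 (649 CPM), where the sum was highest. The higher count was 2 without Mettl3-CKO replicate 1 or 2 and 3 without Mettl3-CKO replicate 3 or control replicate 4. Of 11 progenitor identity genes 3 were called higher (median 0.35), among them Fgf15 (1.08, edgeR adjusted p = 0.00612) and Lhx2 (0.52, edgeR adjusted p = 0.0312), and their sums of 2885 to 3868 and 2248 to 2968 CPM overlapped. This count was 1 without Mettl3-CKO replicate 1 and 5 without Mettl3-CKO replicate 4 or control replicate 1. The part of these cells in the levels of Atoh7 and Neurod4 was not tested.

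Markers of photoreceptor precursors and rods differed between the groups in the same direction as Insm1 and Neurod1. Of 10 such genes 0 were called higher and 6 lower (median log2 fold change -0.67), with Nr2e3 (-0.81, edgeR adjusted p = 0.00615), Nrl (-0.79, edgeR adjusted p = 0.00861), Pde6b (-1.09, edgeR adjusted p = 0.015) and Sag (-0.83, edgeR adjusted p = 0.0187) having the lowest adjusted p. Their sum was 3168 to 4552 CPM in Mettl3-CKO and 4965 to 6451 CPM in control samples, with no overlap and none of the 10 at 0. The lower count was 2 without Mettl3-CKO replicate 1 and 3 without Mettl3-CKO replicate 2. The part of these cells in the level of Insm1 was not tested.

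Ganglion cell markers bear on Atoh7, and 1 of 7 was called higher and 0 lower (median log2 fold change 0.13). That gene, Pou4f1, a factor of ganglion cells, rose by 0.55 on the log2 scale (edgeR adjusted p = 0.0108). Isl1 (0.23), Rbpms (0.14) and Pou4f2 (0.13) had positive log2 fold changes and were not called. Sncg (-0.06), Nefl (-0.08) and Nefm (-0.25) had negative ones and were not called either. The paper found the number of BRN3A-positive ganglion cells to be comparable in mutants and controls. A link between Atoh7 and ganglion cell number was not tested. The summed ganglion list was 586 to 624 CPM in Mettl3-CKO and 522 to 730 CPM in control samples, and the groups overlapped. Of the amacrine genes, 0 of 7 were called higher and 1 lower (Slc6a9, -0.80), and of 7 tested Müller glia genes 1 was called higher (Glul, 0.43) and 1 lower (Rlbp1, -1.28), with 2 higher without control replicate 1. Bipolar, horizontal and cone cell markers gave calls that were lost when single libraries were left out. Of 6 tested bipolar genes 1 was called higher (Pcp2, 0.94), and 0 without Mettl3-CKO replicate 1 or 3 or control replicate 2, and 1 was called lower (Prkca, -0.44), and 0 without Mettl3-CKO replicate 1, 2 or 3 or control replicate 3 or 4. Of 5 horizontal cell genes 1 was called higher (Onecut2, 0.58), and 0 without any 1 of the Mettl3-CKO replicates or control replicate 2 or 3, and 0 were called lower, but 1 without control replicate 1. Of 5 tested cone genes 0 were called higher and 1 lower (Pde6h, -0.69), and 0 without Mettl3-CKO replicate 1 or 2 or control replicate 2 or 4. Of the oligodendrocyte lineage genes beside which Olig2 can be read, 3 of 6 tested were called higher (Mog 1.21, Cspg4 1.20 and Cnp 0.38) and 1 lower (Pdgfra, -0.87), the last lost without Mettl3-CKO replicate 1 or 2, with sums of 184 to 216 and 168 to 263 CPM.

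Calls among most lists of non-neural markers also moved with single libraries. Of 7 tested lens genes 0 were called higher and 5 lower, and the lower count was 0 without any 1 of the Mettl3-CKO replicates or control replicate 4, and 8 without control replicate 3. Of 8 endothelial genes 0 were called higher and 6 lower, and 2 lower without Mettl3-CKO replicate 1, 2 or 3. Of 3 tested erythrocyte genes 2 were called lower, and 4 without Mettl3-CKO replicate 2, where more genes were tested. At least 2 were called lower in each of the 8 fits with 1 library left out. The summed erythrocyte list was 4.29 to 7.18 CPM in Mettl3-CKO and 13.9 to 26.3 CPM in control samples, with no overlap. Of 4 astrocyte genes 1 was called lower, and 0 without Mettl3-CKO replicate 2, 3 or 4. Of 6 tested pigment epithelium genes 1 was called higher, and 0 in each fit with 1 library left out except that without control replicate 1, and 2 were called lower, with 1 without Mettl3-CKO replicate 1 or 4 or control replicate 2 and 4 without control replicate 1. Of 5 microglia genes 0 were called in either direction, and 2 were called higher without control replicate 1.

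Ratios between genes of the same library, chosen after the values were seen and given without a test, show how each factor stood relative to those markers. Set against the summed CPM of the 12 cycling genes, Atoh7 amounted to 1.56%, 1.05%, 1.03% and 1.17% in Mettl3-CKO replicates 1 to 4, where the controls had 0.563%, 0.502%, 0.709% and 0.569%. The groups did not overlap, and the mean ratio was 2.05-fold higher in Mettl3-CKO, so Atoh7 reads rose by more than the reads of those markers did. Atoh7 relative to Neurog2 (40.2% to 104% against 17.2% to 31.5%) also did not overlap. In Mettl3-CKO replicates 1 to 4, Neurod4 relative to the cycling genes was 37.3%, 30.2%, 44.5% and 54.2%. The controls had 53.9%, 32.1%, 46.7% and 45.3%, so both groups spread widely over nearly the same range. Relative to the rod list Neurod4 was 25.3% to 32.7% against 12.6% to 16.9%, and relative to Neurod1 it was 223%, 175%, 235% and 214% against 133%, 105%, 131% and 128%, with no overlap in either. The rod list and Neurod1 were themselves lower in Mettl3-CKO without overlap, so the separation of these ratios followed from the single levels.

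Insm1 behaved the other way round from Neurod4 in these ratios. Relative to the cycling genes it was 7.08% to 10.9% in Mettl3-CKO and 13.7% to 20.2% in control samples, with no overlap. Relative to the rod list it was 5.06% to 7.58% against 4.85% to 5.45%, and relative to Neurod1 41.1% to 51.9% against 40.6% to 49.8%, and both of these overlapped. Mki67 (905 and 459 CPM) and Top2a (545 and 428 CPM) were the highest of the 12 cycling genes in Mettl3-CKO and control samples, so these ratios lean on them. The paper reports Ki67 as upregulated, but Ccna2 and Cdca8 as downregulated, in its cluster of Mettl3-mutant progenitors. Mki67, Ccna2 and Cdca8 are all in the summed list, so the sum need not follow the number of cycling cells. The paper also reports a higher proportion of progenitors and a larger KI67-positive region in Mettl3-CKO retinas. How much of the summed level came from cell number and how much from the level per cell was not tested.

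**Figure D4:**
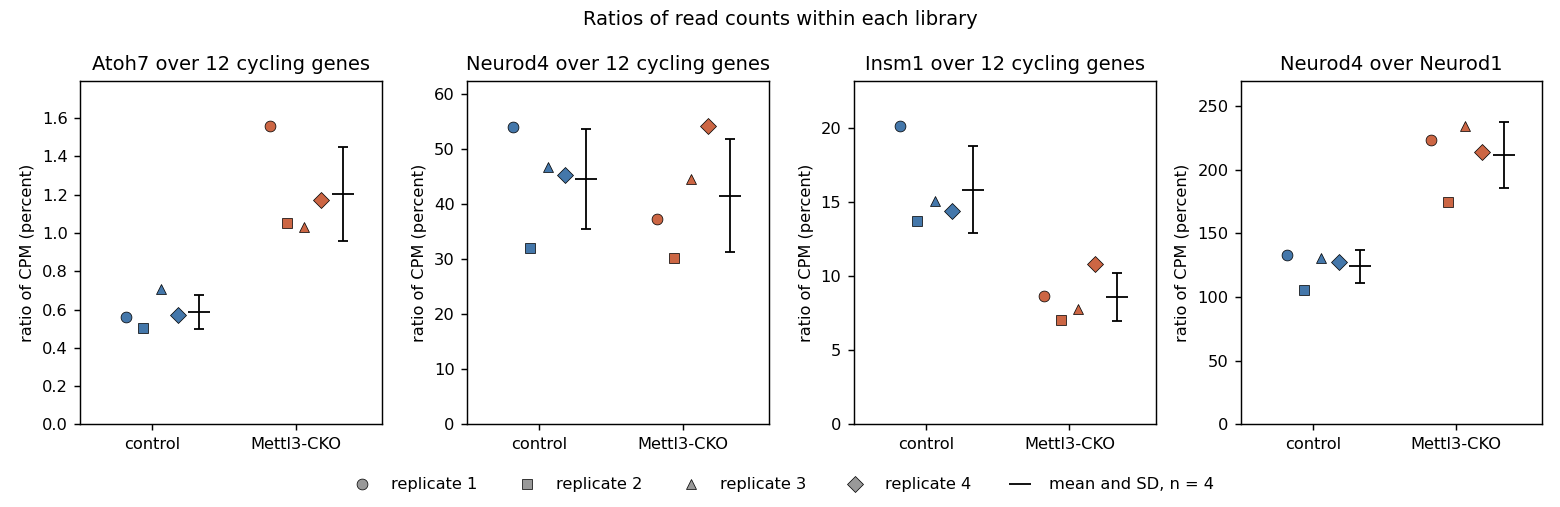
Ratio of CPM within each library, in percent (vertical axes, starting at 0), for Atoh7, Neurod4 and Insm1 over the summed 12 cycling genes and for Neurod4 over Neurod1, with the replicate given by the point shape and the mean and SD (n = 4) by the bars. Atoh7 over cycling genes is at 1.03% to 1.56% in Mettl3-CKO and 0.502% to 0.709% in control samples, Neurod4 over cycling genes overlaps between groups, Insm1 over cycling genes is lower in Mettl3-CKO, and Neurod4 over Neurod1 is higher.

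For each called factor the 2 genes with the closest profile over the 8 samples were found by the root mean square difference of log2 CPM, centred on each gene's mean, among 14316 genes. For Atoh7 they were Notch3 (difference 0.142, log2 fold change 1.46, edgeR adjusted p = 0.000659) and Pelo (0.157, log2 fold change 1.43, edgeR adjusted p = 0.00184). For Neurod4 they were Zkscan5 (0.0624, log2 fold change 0.41, edgeR adjusted p = 0.0354) and Cftr (0.0718, log2 fold change 0.32, edgeR adjusted p = 0.24). For Insm1 they were Tmem158 (0.0587, log2 fold change -0.36, edgeR adjusted p = 0.0467) and Lypd1 (0.071, log2 fold change -0.45, edgeR adjusted p = 0.133). The 8 points of a profile share the group difference, so genes with a like fold change lie close by this measure.

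Because METTL3 methylates adenosines in a short consensus, the letters GGACT, one form of it, were counted on the sense strand of the longest coding transcript of each gene. Atoh7 held 4 copies (2.46 per kilobase) and Neurog2 5 (2.25), more per kilobase than 95.1% and 92.7% of 14285 tested genes. Btg2 held 5 (1.82), Gadd45a 1 (0.818), Olig2 2 (0.791), Hes6 1 (0.749) and Neurod4 1 (0.299), and Insm1 held 0, as did 7.11% of the genes. The median over all genes was 1.05 per kilobase, with quartiles of 0.649 and 1.51. Atoh7 and Neurog2, with the highest densities of the 8, had log2 fold changes of 1.57 and 0.14. Whether any copy was methylated was not measured by these libraries. The study mapped m6A peaks by MeRIP-seq in newborn, early postnatal and adult mouse retinas, and those peaks were not set beside these genes here.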

How the data were processed

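Whole-retina RNA was sequenced by the authors from 8 samples. The deposited values are raw counts per gene, which the authors made by aligning 150 bp paired-end reads to GRCm38 with HISAT2 and counting with featureCounts, without normalisation. The annotation release and any use of strand are not given in the sources used here. All 8 sample columns were used, and groups came from the sample titles. Genes were kept by edgeR's filterByExpr, scaled by TMM and tested with edgeR 4.0.16 (quasi-likelihood test, group as the only term, R 4.3.3), with Benjamini-Hochberg adjustment over 17998 genes and a threshold of 0.05. CPM is TMM-scaled, FPKM was computed from the deposited gene lengths, and log2 CPM used a prior count of 2. The common biological coefficient of variation was 15%. Scripts were tested on simulated data.

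The 8 genes and all lists were chosen with earlier results of these data known. The text names the 8 genes, at most the 4 called genes of lowest adjusted p from each list, Neurod1, Hes1, Hes5 and Cdkn1a whatever their result, and the 2 genes closest in profile to each called factor among those with a mean log2 CPM of at least 1. Olig1, Top2a, E230016M11Rik and the genes under 1 CPM or in the fold change plot were added after values were seen. Some genes that this rule names are not reported here. Alternatives were DESeq2 1.42.0, limma 3.58.1 (voom with quality weights), other scalings, no filter, a replicate block, an adjusted p under 0.01, each sample left out in turn, and control replicates 1 and 4 left out.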

Additional observations from a re-analysis of the deposited data

Results flagged for a closer look

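Btg2 was lowest in control replicate 2, at 7.98 log2 CPM against 8.19 to 8.22 in the other 3 controls, a gap that took up 0.859 of the group's range and passed Dixon's critical value for 4 samples. It was the 1 such sample among 16 groups of 4 looked at, and chance gives about 1 in 20 groups, or 0.8 here. Without control replicate 2 the log2 fold change of Btg2 was -0.34 (edgeR adjusted p = 0.0782).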

How the results depend on the processing

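Atoh7 stayed past the threshold in all 16 alternatives. The count of factors called higher, 2, ranged from 1 to 2 and the count called lower, 1, from 0 to 1 when each sample was left out in turn. At an adjusted p under 0.01 these counts were 1 and 0. With control replicates 1 and 4 left out, 0 factors were lower, with Insm1 at -0.32 (edgeR adjusted p = 0.0519), and with DESeq2 2 were, since Btg2 (-0.29) passed. Leaving out each sample in turn, log2 fold changes ranged from 0.34 to 0.51 for Neurod4, called in 2 of 8 such fits, and from -0.42 to -0.29 for Insm1, called in 3 of 8. Neurog2 changed sign without control replicate 1, to -0.0408, and reached 0.32 without control replicate 3. Over the 9 pathway lists together, 10 genes were called higher and 7 lower. These counts ranged from 6 (without Mettl3-CKO replicate 1) to 12 and from 2 (without Mettl3-CKO replicate 1) to 12 (without control replicate 1), with 4 lower without Mettl3-CKO replicate 3. They were 5 and 1 at an adjusted p under 0.01, and voom gave 14 lower. The cause was not tested. All-gene calls with all 8 samples were 1168 higher and 729 lower. Without control replicate 1 they were 1882 and 1289. Same-numbered samples did not all deviate together (r of -0.11, 0.22, -0.11 and 0.25 over 17998 genes), and 4 of 8 samples correlated best with their own number. With the replicate number as a block, all-gene calls went from 1168 higher and 729 lower to 1198 and 660, no factor's call changed (Atoh7 1.55, Neurod4 0.41, Insm1 -0.36), and the pathway lists held 10 higher and 8 lower. Within single lists the block gave 1 Hes or Hey gene higher (0 without it), 0 Gadd45 relatives lower (1), 1 Btg or Tob gene lower (0), 1 neurogenic progenitor gene lower (2), 0 cone genes lower (1) and 1 lens gene lower (5). Each factor had 166 counts or more in every library, and the effect of depth on these calls was not tested.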
